A study of Mus musculus with 6 samples.

Results

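The lysosomal enzymes and membrane proteins of a mouse myeloid cell line were compared between cells with wild-type and S34F-mutant human U2AF1. The group was taken from the deposited count table by gene symbol and holds 46 genes of the 54532 in the table. All 46 symbols were found, each once. The line is 32D, labelled myeloblast-like, which depends on interleukin-3. The cells had been transduced with an MSCV-IRES-GFP retrovirus that carried human U2AF1, either the wild-type form (U2AF1-WT, below WT) or the form with the S34F substitution (U2AF1 S34F, below S34F). U2AF1 is a splicing factor that recognises the 3' end of introns. Both groups were kept in IMDM with serum and mouse interleukin-3, and each had 3 RNA sequencing libraries. The construct came on top of whatever mouse U2af1 the cells make, and the labels name neither clones nor a sort for GFP.

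Lysosomes are acidic compartments in which proteins, glycans, lipids and nucleic acids are broken down. Most of the enzymes inside them receive a mannose 6-phosphate tag in the Golgi, which directs them there, while heavily glycosylated membrane proteins line the organelle and carry products out. Many of the genes are activated by the transcription factors TFEB and TFE3, which bind E-box sequences near their start sites. In myeloid cells lysosomal proteases and glycosidases digest ingested material, and some of them are also stored in granules.

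Totals lay between 16509899 and 19129250 counts per library. Levels below are counts scaled to TMM-normalised library size (CPM), in which 1 count equalled 0.0520 to 0.0608 CPM. WT replicates 2 and 3 were the closest pair, with a biological coefficient of variation of 3.16%, against 16.5% to 21.5% for the other pairs within a group. The labels do not say whether replicates were grown separately, so the p-values rest on a spread between libraries that may be technical. U2af1 was counted at 57.3 to 91.9 CPM in S34F and 56.9 to 97.9 CPM in WT, which does not check the labels because gene counts do not show the allele. Of the markers of myeloblasts, the interleukin-3 receptor chain gene Csf2rb was at 570 to 831 CPM over the 6 libraries. Kit was at or near 0 throughout, with at most 0.177 CPM, and Elane did not exceed 0.324 CPM. Other markers of this list were present. Ctsg was at 361 to 395 CPM in S34F and 186 to 284 CPM in WT (adjusted p 0.106), and Myb at 186 to 336 and 282 to 343 CPM. Prtn3 was at 22.3 to 39.7 CPM in S34F and 37.2 to 51.7 CPM in WT, and Mpo at 2.99 to 15.8 and 9.01 to 9.84 CPM. Of the 11 tested myeloblast markers Cd33 and Spi1 rose, beside 1.58% of all genes (log2 fold changes 2.11 and 0.59, adjusted p 0.0211 and 0.0491). Both missed the threshold with WT replicates 2 and 3 summed (adjusted p 0.108 and 0.192), and Spi1 also with the trend of each library with GC content removed (0.134). In bulk libraries, fewer cells of a type and less RNA per cell cannot be told apart.

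Of the 46 genes, 42 had enough counts to be tested. In S34F cells 3 of the 42 rose and none fell, while 39 missed the threshold (quasi-likelihood test of edgeR, p adjusted by Benjamini-Hochberg over 13444 genes, threshold 0.05). The genes that rose were Man2b2, Ctsz and Cd63, by 1.69-fold, 2.04-fold and 1.45-fold. They make up 7.14% of the tested lysosomal genes, beside 1.58% of all genes that rose, 0.595% that fell and 2.18% that did either. Without adjustment, 22 genes were higher and 3 lower at p under 0.05, which is 52.4% and 7.14% of the 42, beside 11.9% and 10.1% of all genes tested. The log2 fold change was positive in 35 of 42 genes, or 83.3%, against 50.1% of all genes. Its median over the 42 was 0.34, against 0.001 over all genes tested, and it ranged from -0.68 for Ids to 1.72 for Ctsl. In 25 genes all 3 S34F libraries lay above all 3 WT libraries, and in 2 genes, Ids and Ppt1, they lay below. These are 59.5% and 4.76% of the 42, beside 14.0% and 13.1% of all genes. A further 10 genes had adjusted p-values from 0.05 to under 0.1, of which 9 were higher and Ids was lower.

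**Figure D1:**
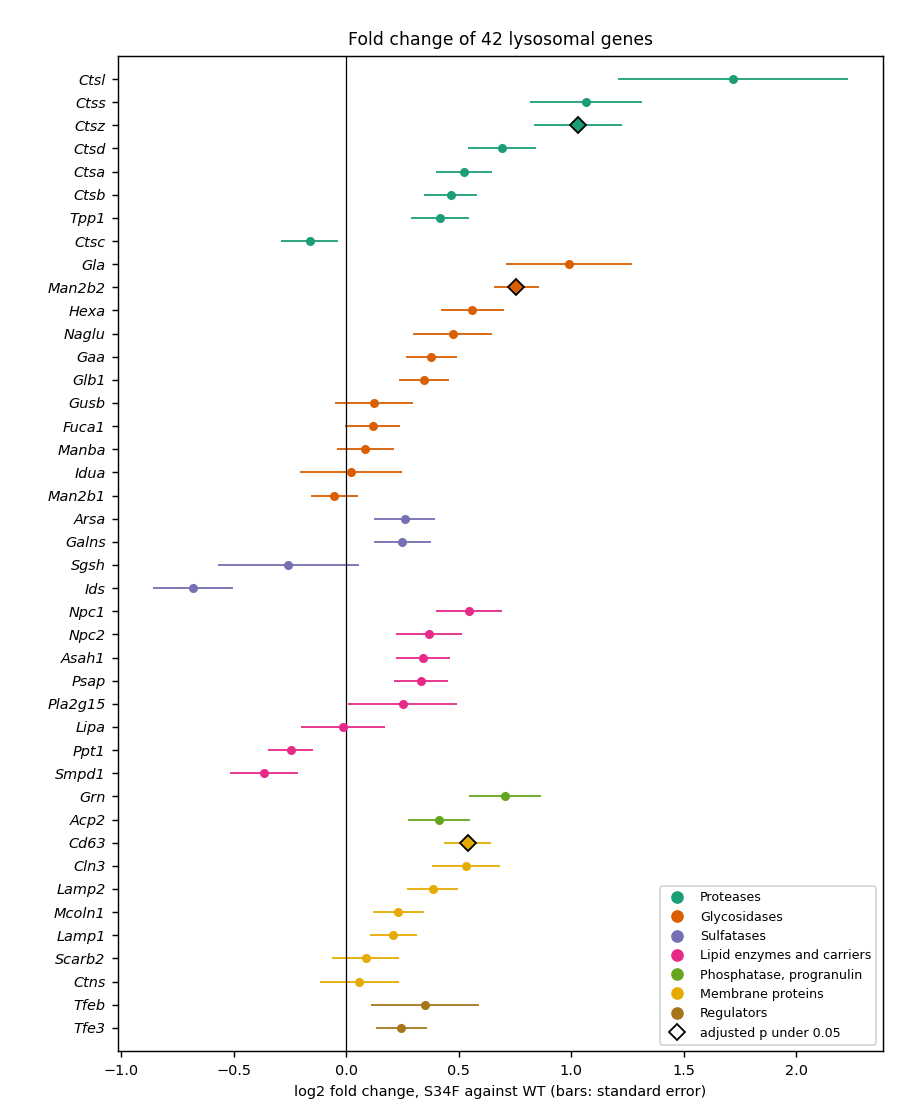
Log2 fold change of S34F against WT (horizontal axis) for the 42 tested lysosomal genes, ordered within each class, with standard errors as bars (3 libraries per group). The 3 outlined diamonds, Ctsz, Man2b2 and Cd63, passed the test at an adjusted p under 0.05, and 35 of 42 points lie to the right of 0.

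The summed level of the 46 genes was 6127, 6630 and 6621 CPM in the S34F libraries, in replicate order, and 5065, 4850 and 4891 CPM in the WT libraries. Their share of all counts was 0.586%, 0.667% and 0.663% in S34F and 0.497%, 0.499% and 0.499% in WT. Every S34F library was above every WT library in this sum. By class, the sums did not overlap for proteases, glycosidases, lipid enzymes, membrane proteins, the phosphatase and progranulin class or the regulators. The sulfatases were the exception, with 102 to 121 CPM in S34F and 95.5 to 123 CPM in WT. These sums are weighted towards the most abundant genes and are given without a test.

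**Figure D2:**
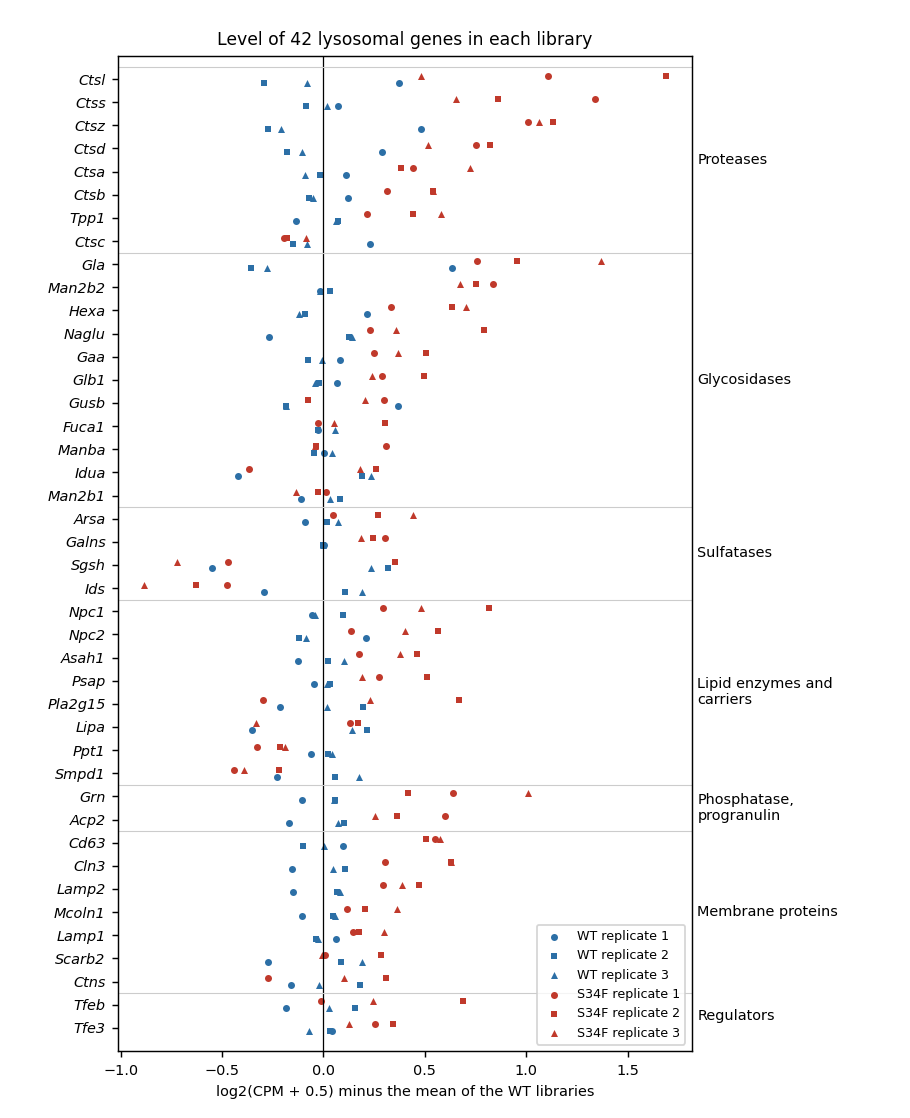
Level of each of the 42 tested genes in each library, as log2(CPM + 0.5) minus the mean of the WT libraries (horizontal axis); red symbols are S34F, blue symbols WT, and the symbol shape gives the replicate. Red symbols lie to the right of all blue symbols in 25 genes, most of them proteases, glycosidases and membrane proteins, and to the left in Ids and Ppt1.

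Among the 10 proteases, 8 were tested, of which 1 rose and 7 did not pass. A positive log2 fold change was found in 7 of the 8, with a median of 0.61, and in the same 7 genes the groups did not overlap. Over all genes tested, 1.58% rose, 50.1% were positive and 14.0% had all S34F libraries above all WT libraries. These shares also belong beside the counts of the other classes below. Ctsz encodes the carboxypeptidase cathepsin Z and is annotated as ENSMUSG00000016256, chromosome 2, 174427493 to 174439039 of mm10. Its levels in replicates 1 to 3 were 433, 471 and 450 CPM for S34F, and 300, 178 and 186 CPM for WT. The S34F libraries were close together and WT replicate 1 lay between them and the other WT libraries. Ctsz rose by 1.03 ± 0.20 on the log2 scale (SE, n = 3 per group, adjusted p = 0.0408). Ctsd, the aspartic protease cathepsin D, was at 209, 219 and 177 CPM in S34F and 151, 109 and 115 CPM in WT. All 3 S34F libraries were above the WT libraries, and WT replicate 1 was again the highest of its group. Its log2 fold change of 0.69 ± 0.15 did not pass (adjusted p = 0.0564).

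The cysteine protease cathepsin B gene Ctsb, the serine carboxypeptidase gene Ctsa and the tripeptidyl peptidase gene Tpp1 had positive differences that did not pass, of 0.46, 0.53 and 0.42 on the log2 scale (adjusted p = 0.0773, 0.0695 and 0.115). Ctsc, cathepsin C, which activates the serine proteases of granules, was the tested protease with a negative log2 fold change, at 274 to 296 CPM in S34F and 283 to 368 CPM in WT (log2 fold change -0.16, adjusted p = 0.489). The cathepsin genes Ctss and Ctsl were at low levels. Ctss was at 10.2, 7.18 and 6.15 CPM in S34F and 3.95, 3.48 and 3.78 CPM in WT, which did not overlap but did not pass (log2 fold change 1.07 ± 0.25, adjusted p = 0.0678). Ctsl had 31, 55 and 16 counts in S34F and 14, 6 and 9 counts in WT, so its log2 fold change, the highest of the 42 at 1.72 ± 0.51, rests on 131 counts (adjusted p = 0.109).

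Cathepsin H and legumain were not detectable or barely so. Ctsh had a count of 0 in all 6 libraries, which allows a level of up to 0.156 to 0.182 CPM per library (3 counts, for counting error only). Lgmn, an asparaginyl endopeptidase that processes cathepsins, had 10 counts over the 6 libraries. The same held for 2 genes of other classes: the sulfatase gene Arsb had 2 counts over all libraries and Acp5, the tartrate-resistant acid phosphatase of osteoclasts and activated macrophages, had 1. These 4 genes were left out of the test by the filter on low counts.

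The 11 glycosidases, which remove sugars from glycans and glycolipids, were all tested. Man2b2 rose and 10 did not pass, with 10 of 11 positive log2 fold changes and a median of 0.35. Of all genes tested 1.58% rose and 50.1% were positive. Man2b2 encodes a lysosomal alpha-mannosidase and is annotated as ENSMUSG00000029119, chromosome 5, 36806921 to 36830653 of mm10. Its levels in replicates 1 to 3 were 266, 251 and 237 CPM for S34F, and 147, 152 and 147 CPM for WT. Both groups were tight and far apart. It rose by 0.76 ± 0.10 on the log2 scale (SE, n = 3 per group, adjusted p = 0.0159), the smallest p-value of the 42 genes. Its relative Man2b1, the main acid alpha-mannosidase, had groups that overlapped, at 130 to 144 CPM in S34F and 132 to 151 CPM in WT (log2 fold change -0.05 ± 0.11, adjusted p = 0.807). The beta-mannosidase gene Manba was at 53.3 to 68.1 and 53.2 to 56.6 CPM (log2 fold change 0.09, adjusted p = 0.734).

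Hexa, the alpha subunit of beta-hexosaminidase, which degrades gangliosides, was the glycosidase gene with the highest level per exon length. It was at 188, 232 and 243 CPM in S34F and 173, 140 and 137 CPM in WT. The groups did not overlap, although S34F replicate 1 and WT replicate 1 were close, and the log2 fold change of 0.56 ± 0.14 did not pass (adjusted p = 0.0777). Gla, alpha-galactosidase A, was at 42.5 to 65.3 CPM in S34F, while the WT libraries had 39.1, 19.4 and 20.5 CPM (log2 fold change 0.99 ± 0.28, adjusted p = 0.0987). The acid alpha-glucosidase gene Gaa, the beta-galactosidase gene Glb1 and the heparan sulfate glycosidase gene Naglu had log2 fold changes of 0.38, 0.35 and 0.47 with groups that did not overlap (adjusted p = 0.113, 0.128 and 0.169). For the beta-glucuronidase gene Gusb, the fucosidase gene Fuca1 and the iduronidase gene Idua the groups overlapped, with log2 fold changes between 0.02 and 0.12.

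The 5 sulfatase genes did not share a direction. The enzymes remove sulfate groups from glycosaminoglycans and sulfatides. Of the 4 tested, 2 had positive and 2 negative log2 fold changes, and none passed. Ids, iduronate 2-sulfatase, was at 20.6, 18.5 and 15.4 CPM in S34F and 23.4, 31.1 and 32.9 CPM in WT. Every S34F library was below every WT library, with WT replicate 1 nearest to them, and the log2 fold change of -0.68 ± 0.18 did not pass (adjusted p = 0.0848). Galns, galactosamine 6-sulfatase, was at 24.5, 23.5 and 22.5 CPM in S34F and 19.8, 19.7 and 19.7 CPM in WT. The groups did not overlap, but the difference was small (log2 fold change 0.25 ± 0.13, adjusted p = 0.286). Arsa, arylsulfatase A, was at 35.5, 41.4 and 46.8 CPM in S34F and 32.2, 34.8 and 36.1 CPM in WT, so S34F replicate 1 fell within the WT range (log2 fold change 0.26 ± 0.14, adjusted p = 0.295). Sgsh, heparan N-sulfatase, varied more within the groups than between them, with 25.6 ± 10.7 CPM in S34F and 30.6 ± 9.21 CPM in WT (SD, n = 3 per group).

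Of the 8 genes of lipid breakdown and transport none passed, with 5 positive and 3 negative log2 fold changes and a median of 0.29. Npc1, the membrane protein that moves cholesterol out of lysosomes, was at 139, 200 and 158 CPM in S34F and 109, 121 and 110 CPM in WT. All S34F libraries were higher, replicate 2 most of all, and the log2 fold change of 0.55 ± 0.14 did not pass (adjusted p = 0.0873). Its soluble partner Npc2 was at 194 to 261 CPM in S34F and 162 to 204 CPM in WT, where the groups overlapped (log2 fold change 0.37, adjusted p = 0.187). Asah1, acid ceramidase, was at 119, 145 and 137 CPM in S34F and 96.4, 107 and 113 CPM in WT (log2 fold change 0.34 ± 0.12, adjusted p = 0.148).

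Psap, whose product is cut into the saposins that activate glycolipid hydrolases, was the most abundant lipid gene per exon length. It was at 487, 574 and 459 CPM in S34F and 390, 411 and 407 CPM in WT, without overlap (log2 fold change 0.33 ± 0.12, adjusted p = 0.160). Smpd1, acid sphingomyelinase, and Ppt1, which removes palmitate from proteins, went the other way, at -0.37 ± 0.15 and -0.25 ± 0.10 on the log2 scale (adjusted p = 0.199 and 0.197). Ppt1 was at 98.1 to 108 CPM in S34F and 118 to 127 CPM in WT. It shares 3.51% of its exon bases with Cap1 on the opposite strand, at 397 CPM on average, against 114 CPM for Ppt1. Lipa, lysosomal acid lipase, and the phospholipase gene Pla2g15 had groups that overlapped (log2 fold changes -0.015 ± 0.19 and 0.25 ± 0.24).

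Grn encodes progranulin, a secreted and lysosomal glycoprotein that is cut into granulins. It was at 675, 579 and 874 CPM in S34F and 403, 451 and 449 CPM in WT, the highest mean CPM of the 46 genes. The S34F libraries were uneven but all above WT, and the log2 fold change of 0.71 ± 0.16 did not pass (adjusted p = 0.0621). Acp2, lysosomal acid phosphatase, was at 59.2, 50.1 and 46.5 CPM in S34F and 34.5, 41.7 and 40.8 CPM in WT (log2 fold change 0.41 ± 0.14, adjusted p = 0.134). These groups did not overlap either. Of its exon bases 12.6% are shared with Ddb2 on the opposite strand, at 24.7 CPM on average.

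All 7 membrane protein genes had positive log2 fold changes, with a median of 0.23, and 1 rose, beside 50.1% and 1.58% of all genes. Cd63 encodes a tetraspanin of late endosomes, lysosomes and granules and is annotated as ENSMUSG00000025351, chromosome 10, 128900989 to 128912822 of mm10. Its levels in replicates 1 to 3 were 281, 272 and 286 CPM for S34F, and 205, 179 and 192 CPM for WT. The libraries of each group were close together. Cd63 rose by 0.54 ± 0.10 on the log2 scale (SE, n = 3 per group, adjusted p = 0.0415). Cln3, a membrane protein mutated in juvenile neuronal ceroid lipofuscinosis, was at 24.8, 31.2 and 31.2 CPM in S34F and 17.9, 21.6 and 20.7 CPM in WT, without overlap (log2 fold change 0.53 ± 0.15, adjusted p = 0.0987). It shares 7.65% of its exon bases with Apobr on the opposite strand, at 24.8 CPM on average.

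Lamp1 and Lamp2 encode the main glycoproteins of the lysosomal membrane. Lamp1 was at 474, 483 and 527 CPM in S34F and 447, 417 and 420 CPM in WT, which did not overlap, with a log2 fold change of only 0.21 ± 0.11 (adjusted p = 0.288). Lamp2 was at 265 to 300 and 195 to 229 CPM (log2 fold change 0.38 ± 0.11, adjusted p = 0.109). The calcium channel gene Mcoln1 had a log2 fold change of 0.23 without overlap (adjusted p = 0.268). The groups overlapped for Scarb2, the receptor that carries glucocerebrosidase, and for the cystine exporter gene Ctns, with log2 fold changes of 0.09 and 0.06.

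**Figure D3:**
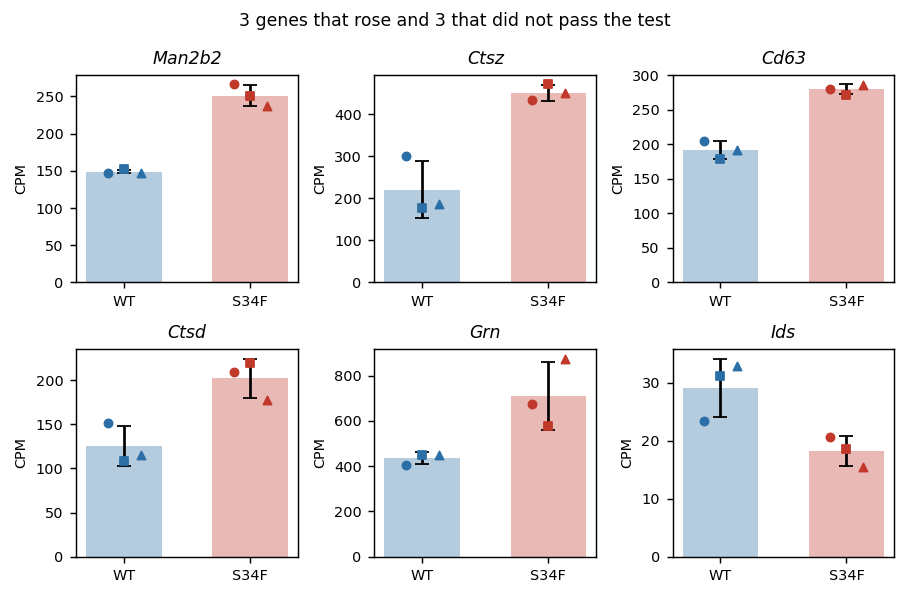
Levels in CPM (vertical axes, from 0) of Man2b2, Ctsz and Cd63, which rose, and of Ctsd, Grn and Ids, which did not pass the test; bars are means of 3 libraries with SD, and the symbol shape gives the replicate (circle 1, square 2, triangle 3). In Ctsz and Ctsd the circle of WT replicate 1, at 300 and 151 CPM, is the WT library nearest to S34F, and in Ids, at 23.4 CPM, likewise.

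Both regulators were present at low levels per exon length. Tfeb was at 6.71, 11.2 and 8.12 CPM in S34F and 5.90, 7.60 and 6.92 CPM in WT, with overlap (log2 fold change 0.35 ± 0.24, adjusted p = 0.425). Tfe3 was higher, at 48.1, 51.3 and 44.0 CPM in S34F and 41.5, 41.2 and 38.3 CPM in WT. The Tfe3 groups did not overlap, but the difference did not pass (log2 fold change 0.25 ± 0.11, adjusted p = 0.246). Both factors are controlled largely by phosphorylation and by their place in the cell, which counts of their transcripts do not show.

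The sequence that both factors recognise was looked up in the promoters. RefSeq windows from 250 bases before to 50 bases after the start site (GRCm38.p6) were at hand for 41 of the 46 genes. The E-box core CACGTG, which reads the same on both strands, was in the windows of 13 of these 41 genes, or 31.7%, beside 8.09% of 27025 genes. Its longer form TCACGTGA, which contains CACGTG, was in those of 5 genes (Cln3, Ctsa, Ctsd, Gla and Mcoln1), or 12.2%, beside 1.12% of all genes. The 12 tested members with CACGTG had a median log2 fold change of 0.43 and ranged from -0.26 to 1.72, and the 26 tested members without it had a median of 0.25. For TCACGTGA the 5 members had a median of 0.53 and ranged from 0.23 to 0.99, and the 33 tested members without it had a median of 0.26. A match is a description of letters and does not show that a factor binds.

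The stretches of 5 genes show how this differs between the genes. The first 3 genes carry the core, printed in capitals, and did not pass the test, while the windows of the last 2, which rose, hold none. They are examples only. Among genes with the core that are not printed, the log2 fold change was 1.72 in Ctsl, 0.99 in Gla, 0.69 in Ctsd and -0.26 in Sgsh. Each stretch lies before the RefSeq start site and outside annotated exons, and is read 5′ to 3′ on the strand of the gene.
Lamp1 (chr8:13159041-13159160, plus strand): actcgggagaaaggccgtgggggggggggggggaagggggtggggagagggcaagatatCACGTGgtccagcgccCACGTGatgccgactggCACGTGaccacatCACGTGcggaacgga
Gaa (chr11:119267766-119267885, plus strand): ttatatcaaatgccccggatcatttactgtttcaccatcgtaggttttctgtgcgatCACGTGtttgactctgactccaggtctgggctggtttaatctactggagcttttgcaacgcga
Glb1 (chr9:114400956-114401075, plus strand): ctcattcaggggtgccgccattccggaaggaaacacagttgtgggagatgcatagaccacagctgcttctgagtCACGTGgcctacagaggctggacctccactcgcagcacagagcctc
Ctsz (chr2:174439040-174439159, minus strand): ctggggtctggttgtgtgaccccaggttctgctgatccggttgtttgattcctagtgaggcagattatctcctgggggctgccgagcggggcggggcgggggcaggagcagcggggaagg
Man2b2 (chr5:36830654-36830773, minus strand): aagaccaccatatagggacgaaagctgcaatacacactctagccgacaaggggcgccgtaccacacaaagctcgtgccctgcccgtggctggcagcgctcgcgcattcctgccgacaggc
Lamp1 has 4 copies of CACGTG within its stretch and a log2 fold change of 0.21, whereas Gaa and Glb1 have 1 copy each and log2 fold changes of 0.38 and 0.35. The window of Cd63, the other gene that rose, holds no copy either. That these letters are missing from a window says nothing about regulation from outside it.

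To compare abundance between genes, CPM were divided by exon length in kilobases. By the mean over both groups Ctsz was highest, at 154 CPM per kb in WT and 313 in S34F, followed by Lamp1 (160 and 185), Psap (147 and 185) and Grn (125 and 204). These 4 genes had means over 100 CPM per kb, and in WT alone Lamp1 was above Ctsz. In WT Ctsz did not differ from Lamp1, Psap or Grn beyond its spread, with an SD of 68.2 CPM on a mean of 221 CPM. By the mean over both groups Hexa, Ctsd and Cd63 came next, at 75.1, 53.1 and 52.2 CPM per kb in WT and 111, 85.8 and 75.9 in S34F. At the low end of the tested genes were Ctsl, at 0.0869 CPM per kb in WT and 0.286 in S34F, Tfeb, at 1.20 and 1.53, and Cln3, at 3.47 and 5.02.

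**Figure D4:**
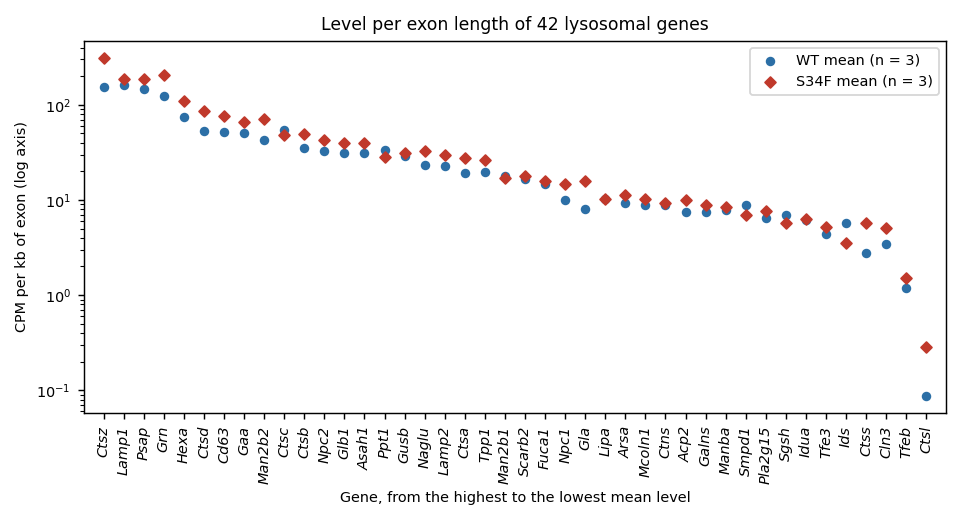
Mean level per exon length (CPM per kb, log axis) of the 42 tested lysosomal genes in WT (blue circles) and S34F (red diamonds), 3 libraries each, ordered by the mean over both groups. Ctsz has the highest mean over both groups, with 154 CPM per kb in WT, below the 160 of Lamp1, and 313 in S34F, and Ctsl is lowest at 0.0869 and 0.286.

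Other genes of the lysosome were taken from 4 further lists. For comparison, 1.58% of all genes tested rose, 0.595% fell and 50.1% had a positive log2 fold change. Of 21 tested hydrolases and cofactors outside the 46 genes, 4 rose, none fell and 17 were positive, with a median log2 fold change of 0.40. Among them were the sialidase gene Neu1, the carboxypeptidase gene Scpep1 and the nuclease gene Dnase2a, which rose by 1.17, 1.65 and 0.57 on the log2 scale (adjusted p = 0.00689, 0.0267 and 0.0345). Neu1 was at 49.5, 59.0 and 56.7 CPM in S34F and 25.6, 22.7 and 25.0 CPM in WT. Scpep1 was uneven in S34F, at 77.2, 36.0 and 71.0 CPM, against 17.2 to 21.9 CPM in WT. 

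Of 20 further tested membrane proteins 1 rose and 13 were positive, beside 1.58% and 50.1% of all genes, with a median of 0.05. The gene that rose was the metal transporter gene Slc11a1, at 5.76, 8.53 and 1.02 CPM in S34F and at most 0.530 CPM in WT (adjusted p = 0.0497). The most abundant of these genes, Laptm5, was at 770 to 931 CPM in S34F and 878 to 1040 CPM in WT (log2 fold change -0.25, adjusted p = 0.300). Of 19 tested genes that sort proteins to lysosomes 1 fell and none rose, beside 0.595% and 1.58% of all genes. The log2 fold change was negative in 12 and positive in 7 of them, with a median of -0.06. The gene that fell was Gnptab, which encodes the alpha and beta subunits of the phosphotransferase that starts the mannose 6-phosphate tag. It was at 162, 159 and 134 CPM in S34F and 234, 245 and 246 CPM in WT, and fell by 0.67 ± 0.11 on the log2 scale (adjusted p = 0.0286). Gnptg, the gamma subunit of the same enzyme, was at 17.2 to 21.4 CPM in S34F and 12.0 to 16.0 CPM in WT (log2 fold change 0.57, adjusted p = 0.118). The mannose 6-phosphate receptor gene M6pr was at 396 to 463 and 395 to 517 CPM (log2 fold change -0.04). None of the 6 related regulators passed, where Flcn had the smallest p (log2 fold change 0.57, adjusted p = 0.183). At an unadjusted p under 0.05, 2 of the 6 were higher, Flcn and Fnip2, beside 11.9% of all genes, and the groups overlapped in all 6. DESeq2 and limma-voom gave Flcn adjusted p-values of 0.103 and 0.213, and edgeR with the replicate number as a block gave 0.0311.

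Levels of lysosomal genes differ between myeloid cell types, so marker genes are given beside these results. Of 12 macrophage markers 5 could be tested, and none passed. All 5 had positive log2 fold changes, beside 50.1% of all genes, with a median of 1.47. Their sum was 272 to 406 CPM in S34F and 244 to 251 CPM in WT, most of it from Adgre1 (log2 fold change 0.18). Cd68, a lysosomal glycoprotein of macrophages, is also counted among the further membrane proteins above. It was at 32.4, 32.2 and 32.0 CPM in S34F and 19.9, 7.54 and 7.46 CPM in WT (adjusted p = 0.0695). In the 4 other tested macrophage markers the groups overlapped. For Csf1r, Cd14 and Mpeg1 S34F replicate 3 (4.84, 2.93 and 9.44 CPM) was below WT replicate 1 (10.3, 6.57 and 14.2 CPM). C1qa and C1qb were at 0 in all libraries. Of 11 neutrophil markers 4 were tested and Lcn2 rose (log2 fold change 2.68), beside 1.58% of all genes. The 3 other tested neutrophil markers had groups that overlapped and did not pass. Their log2 fold changes were -1.06 for Ngp, 1.09 for S100a8 and 1.20 for S100a9. The 7 remaining neutrophil markers had too few counts to be tested. The sum of that list was 387 to 674 CPM in S34F and 83.1 to 107 CPM in WT, nearly all of it from Lcn2. Megakaryocyte markers summed to 781 to 891 CPM in S34F and 603 to 636 CPM in WT, mainly from Itga2b. Mast cell, erythroid, lymphoid and stromal markers summed to at most 22.3 CPM in any library. The part of these markers in the lysosomal differences was not tested.

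Fold changes followed the GC content of transcripts over all genes (Spearman's rho 0.316 across genes, which share libraries and are not independent replicates). The lysosomal genes had a median GC content of 51.9%, against 49.1% for all genes tested, and 28 of the 42 were above that. With the trend removed from each library, the median log2 fold change of the 42 genes was 0.20 instead of 0.34, and 35 of 42 were still positive, beside 50.7% of all genes. Man2b2 kept its call (adjusted p = 0.0414) and Lamp2 rose (log2 fold change 0.61, adjusted p = 0.0331), beside 0.871% of all genes that rose and 0.313% that fell in that fit. Ctsz and Cd63 did not pass, at 0.88 and 0.38 on the log2 scale (adjusted p = 0.0588 and 0.114).

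**Figure D5:**
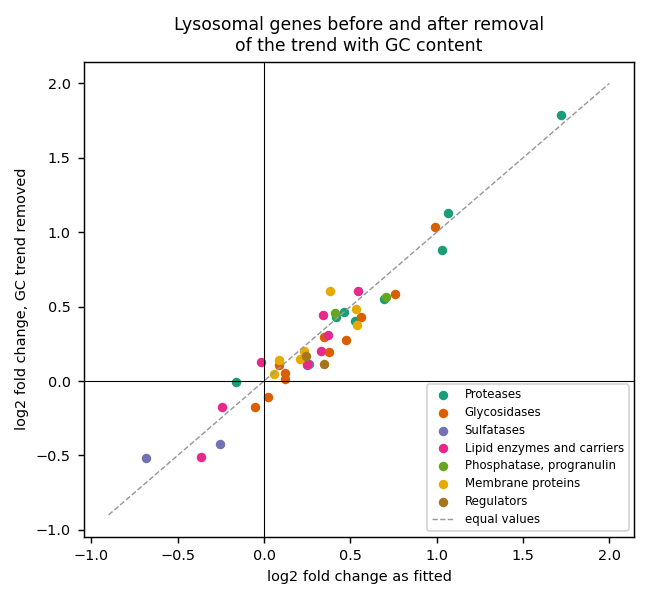
Log2 fold change of the 42 tested lysosomal genes as fitted (horizontal axis) and with the trend of each library with GC content removed (vertical axis), coloured by class; the dashed line marks equal values. In 27 of 42 genes the size of the change was smaller after removal, and the median went from 0.34 to 0.20.

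The calls of single genes changed when single libraries were left out, which also leaves fewer libraries to estimate the spread. Without S34F replicate 1, S34F replicate 3, WT replicate 2 or WT replicate 3, each left out in turn, no lysosomal gene rose or fell, beside 0.145%, 0.362%, 0.138% and 0.160% of all genes called in either direction. Without S34F replicate 2, Man2b2 and Grn rose, beside 2.46% of all genes called in either direction. Without WT replicate 1, 8 genes rose and Ids fell, beside 5.22% of all genes that rose and 3.29% that fell. In that last fit the WT group consisted of the 2 libraries that were closest to each other. With WT replicates 2 and 3 summed into 1 library none of the 3 genes kept its call, beside 0.116% of all genes that rose and 0.029% that fell, with adjusted p-values of 0.102 for Man2b2, 0.161 for Ctsz and 0.221 for Cd63 and log2 fold changes of 0.76, 0.91 and 0.52. Without each library in turn, the log2 fold change of Man2b2 ranged from 0.71 to 0.80, that of Ctsz from 0.89 to 1.31 and that of Cd63 from 0.49 to 0.59. DESeq2, run on the same counts, called 16 lysosomal genes higher and Ids lower, beside 5.59% and 3.53% of all genes. Of the genes in the further lists, Neu1 kept its call with the summed WT library (adjusted p = 0.0429), while Scpep1, Dnase2a, Slc11a1 and Gnptab did not (adjusted p = 0.107, 0.167, 0.184 and 0.135).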

How the data were processed

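Messenger RNA of 6 libraries, 3 per group, was sequenced after column extraction and directional library preparation, per the labels' protocols. The table the authors deposited holds raw counts of reads, as whole numbers for each Ensembl gene. HISAT2, featureCounts and mm10 are named in the submitters' processing notes. Their versions, the strand setting and the annotation were not given in the sources used here, so reads of overlapping genes on opposite strands could be shared. The largest overlaps among tested genes were of Ctsd with Gm49369 (same strand, 34.4% of exon bases) and Ctsl with Gm47123 (26.9%), both partners at 0 CPM. A partner at 0 CPM does not show whether reads in the shared bases were counted for Ctsd or Ctsl.

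Columns were matched to samples by name, and groups came from sample titles. Counts were tested in edgeR 4.0.16 (R 4.3.3) with TMM, filterByExpr and robust quasi-likelihood F tests on genotype alone, two-sided, adjusted over all tested genes. Standard errors were taken from the fold change and the square root of F. Coordinates and exon lengths are those of GENCODE release M21 on the same build, and GC content is that of the longest transcript. The procedure was tested on simulated counts. Alternatives were other normalisation factors and filters, DESeq2 1.42.0, limma-voom (limma 3.58.1), a replicate block, glmTreat, GC correction by loess (span 0.5), summed WT replicates and each library left out. Genes with values in every library were those that passed, the 2 with the smallest p and the highest per kb in each class, and the regulators. Ctss, Ctsl, Gla and Cd68 were added after their values were seen. Members, classes and lists were chosen with earlier results of these data known. Promoter sequences are from RefSeq. Figures were drawn with matplotlib 3.10.9. Some genes of the further lists are counted but not reported here by name.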

Additional observations from a re-analysis of the deposited data

How the results depend on the processing

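The count of 3 lysosomal genes that rose and 0 that fell held with RLE or upper-quartile factors, library totals alone, at least 1 CPM in 3 libraries and limma-voom. DESeq2 gave 16 risen and 1 fallen, and 1227 of all genes instead of 293. No count filter gave 11 and 1, and 763 of all genes. Against a 1.5-fold change (glmTreat) 0 rose, with 10 of all genes. With WT replicates 2 and 3 summed 0 rose, with 20 of all genes. With the GC trend removed the median of the 42 genes was 0.201, with 159 of all genes called. Leaving out each library gave 0 to 8 risen, 0 to 1 fallen, medians from 0.262 to 0.39 and 19 to 1177 of all genes. With the replicate number as a block 14 rose and 1 fell, with 1418 of all genes, and Flcn passed (adjusted p = 0.0311). With the block and the GC trend removed 13 rose and 1 fell, with a median of 0.198 and 1120 of all genes. Same-numbered libraries deviated together with correlations of 0.332, 0.159 and 0.0719. S34F replicates 1 and 2 each correlated best with the WT library of the same number, and S34F replicate 3 with WT replicate 2 (0.0801). WT replicates 2 and 3 were nearly alike (biological coefficient of variation 3.16%), so these correlations cannot decide whether the numbers pair the samples. The cause of these differences was not tested.

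Of the 42 genes, 35 kept the sign of their fold change in each of the 18 alternatives that tested them (Ctsl was not tested at 1 CPM in 3 libraries). The 7 others, none of them called, changed sign as follows. Idua (0.02) went to -0.011 with upper-quartile factors, -0.012 with library totals, -0.106 with the GC trend removed and -0.095 with the block added. Lipa (-0.015) went to 0.125 and 0.121 in the same GC fits and 0.067 with the summed WT replicates. Ctsc went to 0.008 with the GC trend removed and the block. Leaving out each library gave -0.162 to 0.187 for Idua, -0.166 to 0.133 for Lipa, -0.048 to 0.149 for Manba, -0.016 to 0.461 for Pla2g15, -0.033 to 0.182 for Scarb2 and -0.081 to 0.199 for Ctns. The depth limits statements on Ctsh, Lgmn, Arsb and Acp5, which had 0 to 10 counts in all.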
